A study of Mus musculus with 9 samples.

Results

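The genes described here are 9 transporters of drugs, lipids and organic anions, taken by name from a table of 46517 gene rows. They are the efflux pumps Abcb1a, Abcg2, Abcc4 and Abcc1, the cholesterol exporter Abca1, the organic anion transporters Slc22a8 and Slc22a6, and the organic anion transporting polypeptides Slco1a4 and Slco2b1. RNA was measured in single cells freed from vessel fragments of the brains of adult mice, sorted into wells of 4 plates and sequenced by Smart-seq2, a method that covers whole transcripts without molecular identifiers. The 1235 cells bore 9 type labels, given without their full names: 116 aEC, 45 vEC, 17 CP-EC, 54 PC, 41 aSMC, 29 vSMC, 9 FB, 137 MG and 787 capilEC. No strain, genotype, sex or treatment was given, and all cells shared the same tissue and protocol. Each label was deposited as 1 sample and no animal was named, so no difference between labels could be tested, and the 4 plates are shown only as a spread. How the labels were assigned was not given in the sources used here, so a gene used to assign them would not be independent of them.

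Transporters of these families help to set what crosses the blood-brain barrier. The ABC pumps use ATP to push lipophilic drugs and conjugates out of cells, and in brain capillaries P-glycoprotein (Abcb1a) and the breast cancer resistance protein (Abcg2) sit on the side facing the blood. The OAT proteins (Slc22 family) exchange organic anions for dicarboxylates, and the OATP proteins (Slco family) carry bile acids, steroid conjugates and hormones. Abca1 loads cholesterol and phospholipid onto apolipoproteins.

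The pairs Slc22a8 and Slc22a6, and Abcb1a and Abcb1b, are each neighbours of 1 family with unlike levels in these cells, and their promoters are shown for that reason. In GRCm38.p6, Slc22a8 and Slc22a6 lie on the plus strand of chromosome 19, 6.16 kb apart with 0 genes between them. Abcb1a and its paralog Abcb1b lie on the plus strand of chromosome 5, 49.6 kb apart with 0 genes between them. The windows are RefSeq sequences of GRCm38.p6 on the plus strand, each running from 250 bases before to 50 bases after the start that the table gives, which for Slc22a8 lies inside the gene's full span.
Slc22a8 (chr19:8592932-8593231): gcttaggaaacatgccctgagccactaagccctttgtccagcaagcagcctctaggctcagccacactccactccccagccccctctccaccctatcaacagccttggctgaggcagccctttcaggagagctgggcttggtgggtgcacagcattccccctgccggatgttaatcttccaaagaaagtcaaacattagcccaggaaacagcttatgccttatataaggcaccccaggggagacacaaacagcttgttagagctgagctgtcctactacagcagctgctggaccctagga
Slc22a6 (chr19:8617746-8618045): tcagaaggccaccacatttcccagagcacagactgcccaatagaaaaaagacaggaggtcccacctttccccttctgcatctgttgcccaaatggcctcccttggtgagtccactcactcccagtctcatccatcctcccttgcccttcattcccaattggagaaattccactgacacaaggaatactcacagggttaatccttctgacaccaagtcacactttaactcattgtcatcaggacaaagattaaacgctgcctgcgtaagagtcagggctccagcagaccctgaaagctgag
Abcb1a (chr5:8566841-8567140): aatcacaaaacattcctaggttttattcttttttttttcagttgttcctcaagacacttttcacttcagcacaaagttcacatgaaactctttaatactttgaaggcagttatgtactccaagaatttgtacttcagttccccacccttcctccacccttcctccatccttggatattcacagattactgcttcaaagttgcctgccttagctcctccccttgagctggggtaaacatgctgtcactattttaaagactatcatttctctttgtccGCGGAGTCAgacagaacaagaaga
Abcb1b (chr5:8797897-8798196): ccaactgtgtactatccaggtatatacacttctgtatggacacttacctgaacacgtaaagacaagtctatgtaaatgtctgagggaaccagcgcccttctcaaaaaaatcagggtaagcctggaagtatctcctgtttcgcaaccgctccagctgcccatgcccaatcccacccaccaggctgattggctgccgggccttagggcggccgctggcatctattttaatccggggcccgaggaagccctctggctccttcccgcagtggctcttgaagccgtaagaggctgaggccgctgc
The capitals in the Abcb1a window mark a match on the reverse strand to TGACNNNGC, the core of the antioxidant response element, which was found on either strand in 12.4% of 32851 promoters of the same length. The windows of Slc22a8, Slc22a6 and Abcb1b held no match to these letters. The xenobiotic response element core TTGCGTG (1.16% of promoters) and the direct repeat 4 element of LXR (0.0152%), searched on both strands, were in none of the 4 windows. The Abcb1a window held 2 CpG pairs and 40.3% G and C, while that of Abcb1b held 12 CpG pairs and 55% G and C. The Slc22a8 window held 1 CpG pair and the Slc22a6 window 2, against a median of 7 over all promoters. Of the 9 genes, 8 had a promoter in the table, and Abcc1 is named only.

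The levels given are CPM, counts per 1000000 reads over all cells of a type, and a difference is one of log2(CPM + 5), the group named first minus the group named second. The size rule asked for a 4-fold difference, for 50 CPM and for a read in 50% of cells, both in the higher group. The last 2 are the minimums, and each share of all genes is over the genes that met both minimums in that comparison. Counts of the 9 genes include those that did not meet them. Of the 9, 7 met them in FB and in MG against capilEC, and 6 in each other comparison of labels. Cells held 100021 to 854836 reads, with a median of 202225. Reads copied by PCR are not independent molecules, so the intervals given cover counting error only. The labels matched their marker lists: 15 pan endothelial genes summed to 14071 to 21899 CPM in aEC, vEC, CP-EC and capilEC. The same list summed to 5481 CPM in PC, 1834 in aSMC, 4254 in vSMC, 1472 in FB and 1335 in MG, or 6.10% to 25.03% of its sum in capilEC, with none of the 15 genes at 0. The 13 pan mural genes summed to 20386 to 26112 CPM in the 3 mural types, the 10 fibroblast genes to 14467 CPM in FB and the 10 microglial genes to 33808 CPM in MG. Genes of fenestrated endothelium summed to 5278 CPM in CP-EC and to at most 27.2 CPM in any other type. Astrocyte markers summed to 4473 CPM in FB, 2779 in PC, 2694 in vSMC and 579 in aSMC, against 177 in capilEC, and oligodendrocyte and neuron markers to at most 231 CPM, in FB. Since endothelial reads were present in all types, levels in PC, aSMC, vSMC, FB and MG are also given without the cells that hold most of those reads.

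Abcb1a, the P-glycoprotein gene, was high in aEC, vEC and capilEC and low in the other types. It stood at 810 CPM in aEC, 796 in vEC and 76.4 in CP-EC. It stood at 102 CPM in PC, 16.6 in aSMC, 124 in vSMC, 21.9 in FB and 31.3 in MG, against 875 in capilEC. Over the 4 plates, aEC ranged from 687 to 1180 CPM, vEC from 653 to 914 and capilEC from 645 to 1046, so these types could not be put in order. The lowest plate among them, 645 CPM, was above the highest plate of the mural types and MG, 247 CPM in vSMC. At least 50 CPM were present in 108 of 116 aEC, 43 of 45 vEC and 9 of 137 MG cells, against 724 of 787 capilEC cells. Abcb1b, the other mouse P-glycoprotein gene, had 1.37 CPM in aEC, 4.68 in vEC and 12.2 in MG, against 1.35 in capilEC. The transcripts of Abcb1a share 17.6% of their 50-base words with another gene, mostly Abcb1b, so reads in those stretches may be lost or split in the counting. A gene on the opposite strand, Gm42686, overlaps 553 exon bases of Abcb1a, and whether the counting used strand was not given.

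**Figure D1:**
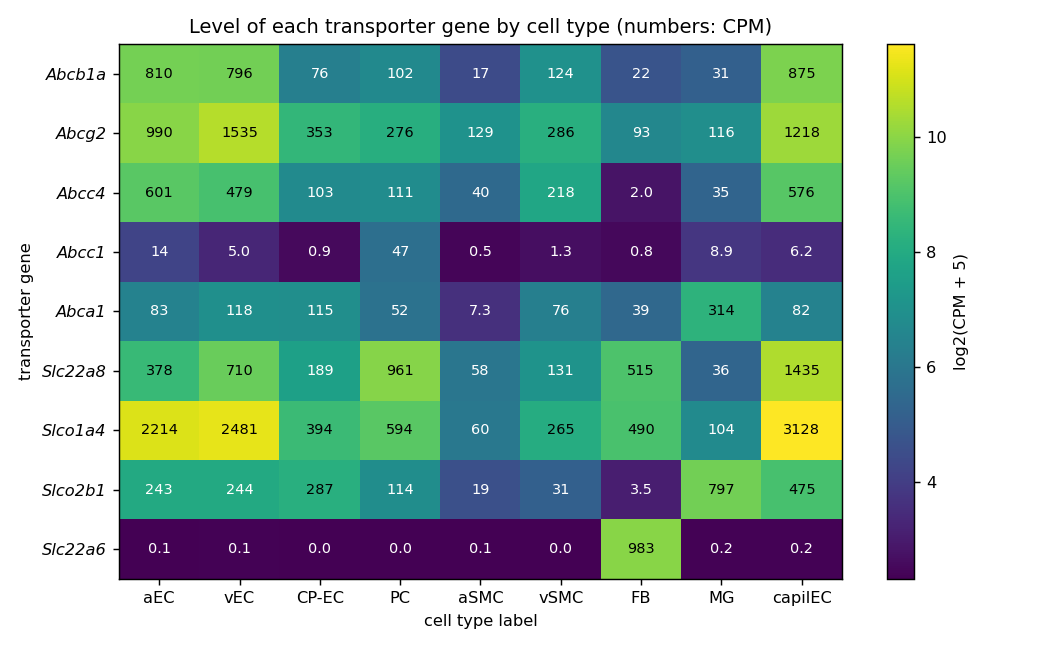
Level of the 9 transporter genes (rows) in the 9 cell types (columns). The colour is log2(CPM + 5) and the printed number is the CPM over all cells of the type: Slco1a4 is highest in capilEC (3128 CPM), Slc22a6 has 983 CPM in FB and at most 0.185 CPM elsewhere, and Slco2b1 and Abca1 are highest in MG.

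Abcg2, the breast cancer resistance protein gene, was highest in vEC. It stood at 990.0 CPM in aEC, 1535 in vEC and 353 in CP-EC. It stood at 276 CPM in PC, 129 in aSMC, 286 in vSMC, 93.1 in FB and 116 in MG, against 1218 in capilEC. The vEC level was above the capilEC level on 4 of 4 plates, by 0.16 to 0.57 log2 units, and the pooled difference was 0.33. The aEC level was below the vEC level on 4 of 4 plates, with a pooled difference of -0.63 and a plate range of -0.93 to -0.20. Both differences were under 2-fold, and the plate ranges of neighbours in the order overlapped (861 to 1637 CPM in aEC, 1332 to 1876 in vEC, 972 to 1681 in capilEC). Plate s169s was the highest for Abcg2 in aEC, vEC and capilEC alike.

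Abcc4, which exports cyclic nucleotides and conjugated anions, was present at similar levels in aEC, vEC and capilEC. It stood at 601 CPM in aEC, 479 in vEC and 103 in CP-EC. It stood at 111 CPM in PC, 40.2 in aSMC, 218 in vSMC, 1.96 in FB and 34.9 in MG, against 576 in capilEC. Plate s169s was the lowest for this gene in aEC (420.4 CPM), vEC (133 CPM) and capilEC (195 CPM), while the other plates gave 518 to 765 CPM in aEC, 500.2 to 752 in vEC and 679.7 to 689.5 in capilEC. Cells fell into those with and without a clear level: 63.8% of aEC, 62.2% of vEC and 58.7% of capilEC cells had at least 50 CPM. The capilEC cells among them had a median of 821 CPM. These shares differed by plate. On plate s169s the share was 57.1% in aEC, 28.6% in vEC and 35.9% in capilEC. On the other plates it was 57.7% to 69.0% in aEC, 66.7% to 83.3% in vEC and 66.7% to 70% in capilEC. In vSMC, 3 of 29 cells held 97.5% of the Abcc4 reads, and in aSMC 1 of 41 cells held 86.1%.

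Abcc1, a pump of glutathione conjugates, was low in every type. Its highest level was 47.3 CPM in PC, where 1 cell held 85.0% of the reads, and 7.41 CPM were left without that cell. It had 13.8 CPM in aEC, 4.96 in vEC and 8.86 in MG, against 6.22 in capilEC. It had 0.906 CPM in CP-EC, 0.516 in aSMC, 1.27 in vSMC and 0.782 in FB. A read was found in 15 of 116 aEC and 22 of 137 MG cells, against 73 of 787 capilEC cells.

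Abca1, the cholesterol exporter, was highest in MG. It stood at 82.7 CPM in aEC, 118 in vEC and 115 in CP-EC. It stood at 51.8 CPM in PC, 7.31 in aSMC, 76.4 in vSMC, 39.1 in FB and 314 in MG, against 82.1 in capilEC. The MG plates ranged from 109 to 509 CPM and overlapped the 36.2 to 153 CPM of vEC, the next type in order. In MG, 47 of 137 cells (34.3%) had at least 50 CPM, with a median of 747 CPM among them, against 100 of 787 capilEC cells (12.7%). In PC, 1 cell held 73.1% of the reads, and the level without it was 14.2 CPM.

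Slc22a8, the gene of OAT3, which clears organic anions from brain, differed more between aEC, vEC and capilEC than Abcb1a, Abcg2, Abcc4, Slco1a4 or Slco2b1 did, and it was high in PC. It stood at 378 CPM in aEC, 710 in vEC and 189 in CP-EC. It stood at 961 CPM in PC, 57.6 in aSMC, 131 in vSMC, 515 in FB and 36.2 in MG, against 1435 in capilEC. On the plates s169s, s480s, s482s and s483s, in that order, aEC had 521, 417, 364 and 345 CPM, vEC had 737, 468, 864 and 675 CPM, and capilEC had 1333, 1500.3, 1483 and 1419 CPM. The highest aEC plate and the highest vEC plate were thus below the lowest capilEC plate. At least 50 CPM were found in 50 of 116 aEC cells (43.1%) and 32 of 45 vEC cells (71.1%), against 657 of 787 capilEC cells (83.5%). Among those cells the median was 717 CPM in aEC and 699.7 CPM in vEC, against 1506 CPM in capilEC. Both the share of such cells and their level were thus lower in aEC.

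Slc22a6, the gene of OAT1 and the neighbour of Slc22a8, was found in FB. It had 983 CPM in FB, where 5 of 9 cells held it, against 0.185 CPM in capilEC. It was listed at 0 in CP-EC, PC and vSMC, where a count of 0 allows up to 0.906, 0.280 and 0.477 CPM. It had 0.0639 CPM in aEC, 0.142 in vEC, 0.0860 in aSMC and 0.153 in MG. Slc22a8 had 515 CPM in FB, with at least 50 CPM in 5 of 9 cells, so reads of both neighbours were present in part of that type. In aEC, vEC, capilEC and PC, Slc22a8 was present and Slc22a6 was at or near 0.

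Slco1a4, an OATP gene of rodent brain capillaries, was high in aEC, vEC and capilEC, and highest in capilEC. It stood at 2214 CPM in aEC, 2481 in vEC and 394 in CP-EC. It stood at 594 CPM in PC, 60.5 in aSMC, 265 in vSMC, 489.7 in FB and 104 in MG, against 3128 in capilEC. The aEC plates (1940.2 to 2421 CPM) and vEC plates (2094 to 2651 CPM) overlapped, and both lay below the capilEC plates (2894 to 3380.5 CPM). It was even over cells, with at least 50 CPM in 111 of 116 aEC and 44 of 45 vEC cells, against 783 of 787 capilEC cells. A read of it was found in 99.3% of MG cells, at a median of 37.5 CPM. Most MG cells also held a read of Abcg2 (97.1%), Slc22a8 (91.2%) and Abcb1a (85.4%). The size rule still used the share of cells with a read for every gene, though that share separates the types little for these genes. The level of Slco1a4 under which 95% of MG cells lay therefore served as a further bound. That bound, 291 CPM, was passed by 88.8% of aEC, 93.3% of vEC, 11.8% of CP-EC, 16.7% of PC, 2.44% of aSMC and 13.8% of vSMC cells and by 5 of 9 FB cells, against 98.5% of capilEC cells.

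Slco2b1, an OATP gene found in many tissues, was highest in MG. It stood at 243 CPM in aEC, 244 in vEC and 287 in CP-EC. It stood at 114 CPM in PC, 19.2 in aSMC, 31.0 in vSMC, 3.52 in FB and 797 in MG, against 475 in capilEC. On the plates s169s, s480s, s482s and s483s, the MG levels were 436, 963, 999 and 420.0 CPM, against capilEC levels of 386, 537.5, 482.2 and 488 CPM. MG was higher on 3 of 4 plates and the ranges overlapped. At least 50 CPM were found in 93 of 137 MG cells (67.9%), with a median of 919.6 CPM among them, against 379 of 787 capilEC cells (48.2%) with a median of 789 CPM. The genes Gm15635 and Gm34280 on the opposite strand overlap 549 exon bases of Slco2b1.

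**Figure D2:**
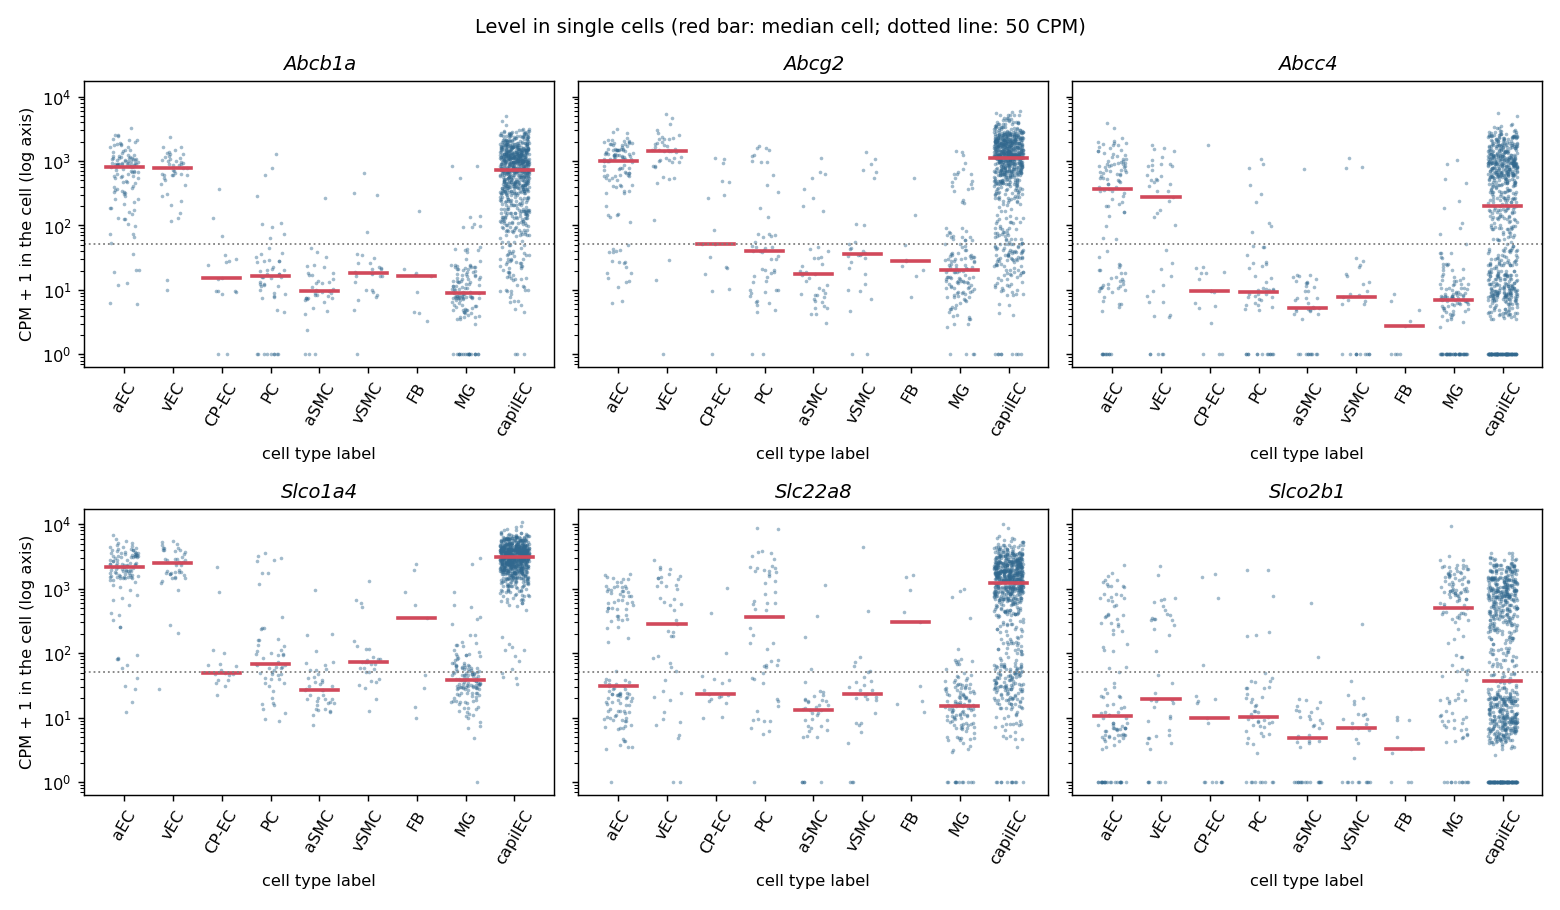
CPM + 1 in each cell (points, log axis) for 6 transporter genes by cell type, with red bars at the median cell and a dotted line at 50 CPM. Slco1a4 and Abcb1a are above the line in most aEC, vEC and capilEC cells, whereas the cells of these types lie on both sides of it for Abcc4 and Slco2b1, and the aEC cells do so for Slc22a8.

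Levels of different genes can be compared only per length of transcript, since a longer transcript gives more reads. The length used here joins all annotated exons of a gene, such as 5480 bases for Abcb1a and 8153 for Abcg2. It can exceed the length of the transcript present, so the order of genes with close values is not certain. Per kilobase of merged exon in capilEC, Slco1a4 had 488 CPM, Slc22a8 had 367, Abcb1a had 159.8, Abcg2 had 149, Abcc4 had 90.2, Slco2b1 had 79.8, Abca1 had 7.92 and Abcc1 had 0.412. On this scale Slco1a4 came first in aEC (345) and vEC (387), Slc22a8 in PC (246), Abcg2 in aSMC (15.8), Slc22a6 in FB (247) and Slco2b1 in MG (134).

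Between aEC and capilEC most transporters were close. Of the 9 genes, 6 met the minimums on level and share of cells, and 0 were 4-fold higher and 0 were 4-fold lower in aEC, where 0.803% of 2118 genes were 4-fold higher and 0.519% were 4-fold lower. At 2-fold, 0 of the 9 genes were higher and 1 was lower, where 3.12% and 2.69% of all genes were. It was Slc22a8, at 378 CPM in aEC against 1435 CPM in capilEC. Its difference was -1.91 log2 units, with a plate range of -2.02 to -1.35. Slco2b1 (-0.95) and Slco1a4 (-0.50) had a lower level in aEC on 4 of 4 plates without passing 2-fold. Slco2b1 did pass it without plate s483s (-1.20) or s169s (-1.05), and without its top cell in each type (-1.04). The differences of Abcb1a (-0.11) and Abcg2 (-0.30) kept their sign on 3 plates, and that of Abcc4 (0.06) on 2. Their plate ranges were -0.35 to 0.87, -0.36 to 0.01 and -0.39 to 1.09. Plate s169s held 7 of 116 aEC, 14 of 45 vEC and 223 of 787 capilEC cells, so pooled levels weigh the plates unlike. The part of this in the pooled differences was not tested. The median difference of the 8 genes above 5 CPM was -0.20, and that of all genes with the minimums was 0.03. With equal weight for every cell the Slc22a8 difference passed 4-fold, at -2.05.

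Between vEC and capilEC, 0 of 9 genes were 4-fold higher and 0 were 4-fold lower, where 1.34% of 2615 genes were 4-fold higher and 0.956% were 4-fold lower. At 2-fold, 0 were higher and 1 was lower, where 5.89% and 5.20% of all genes were. It was again Slc22a8, at 710 CPM in vEC against 1435 CPM in capilEC. Its difference was -1.01, with a plate range of -1.67 to -0.78, and the 2-fold call was lost without plate s480s (-0.91) or s483s (-0.98). The pan endothelial sum of vEC was 64.3% of that of capilEC, and its part in the lower levels of vEC was not tested. Slco2b1 (-0.95) and Slco1a4 (-0.33) had a lower and Abcg2 (0.33) a higher level in vEC on 4 of 4 plates, each under 2-fold, and Slco2b1 passed 2-fold without plate s482s (-1.14), with TMM factors (-1.14) and without its top cell in each type (-1.08). The comparisons of aEC and of vEC share the capilEC cells. For aEC against vEC, 0 genes were 4-fold higher and 0 were 4-fold lower, where 2.21% of 2758 genes were 4-fold higher and 1.96% were 4-fold lower. At 2-fold, 0 were higher and 0 were lower, where 8.01% and 8.70% of all genes were. Slc22a8 (-0.90) had a lower level in aEC than in vEC on 4 of 4 plates, with a range of -1.24 to -0.16.

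**Figure D3:**
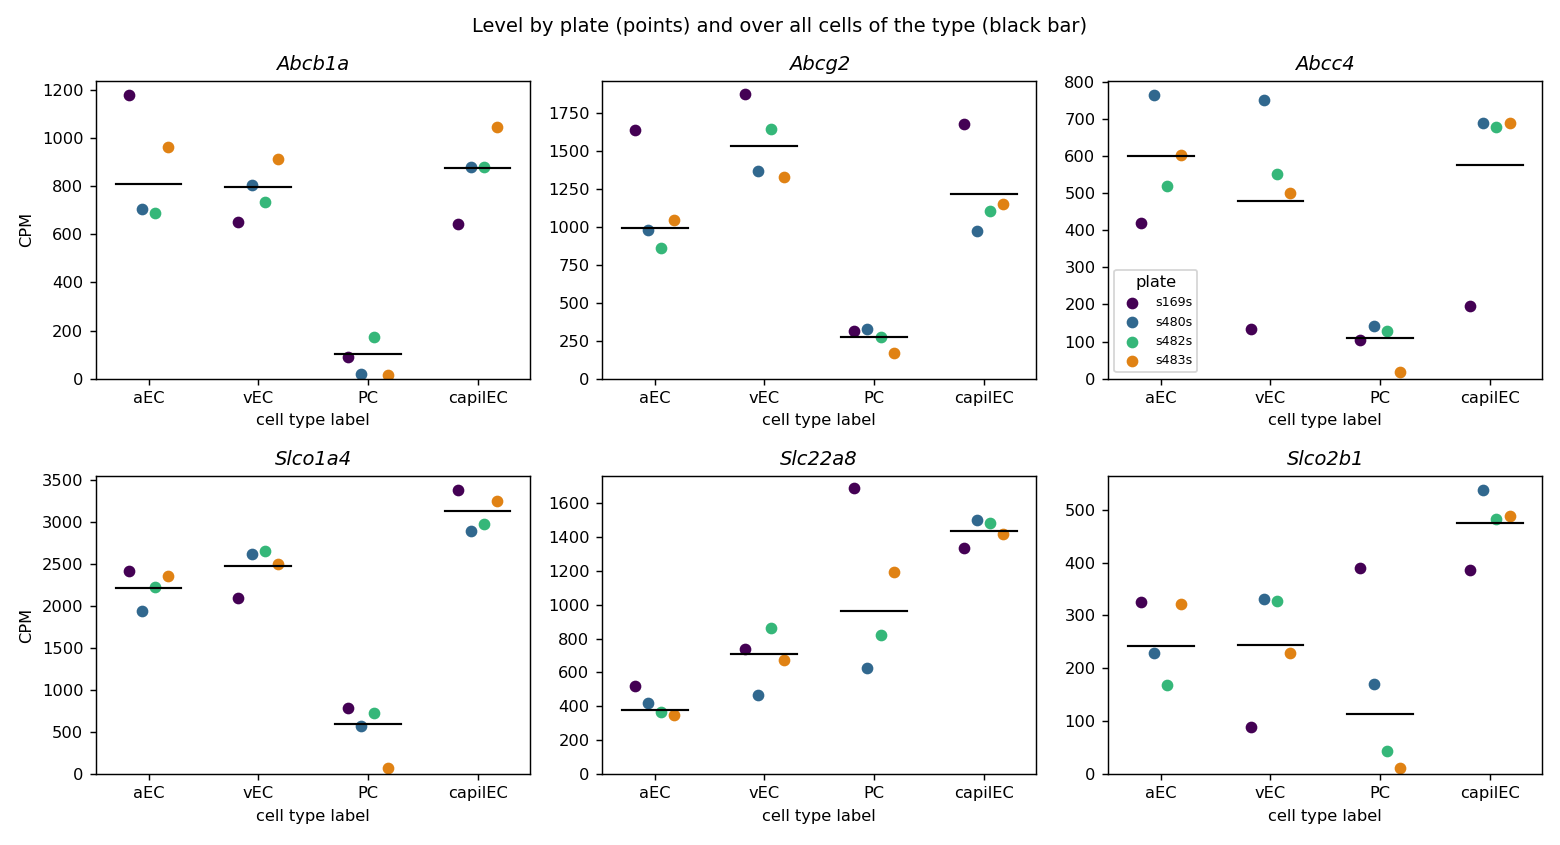
Level (CPM) of 6 transporter genes on each of the 4 plates (points) and over all cells (black bar) in aEC, vEC, PC and capilEC. The aEC and vEC points of Slc22a8 lie below the capilEC points, the PC points of Slc22a8 span 625 to 1692 CPM, and Abcc4 is lowest on plate s169s in aEC, vEC and capilEC.

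Within capilEC, cells were ordered by their level of Slc38a5, a glutamine transporter gene, and cut into 3 parts of equal size on each plate. Slc22a8 stood at 1682 CPM in the 262 cells with most Slc38a5, against 1227 CPM in the 262 cells with least. The difference was 0.45, with a plate range of 0.21 to 0.76. Slco2b1 had 429 CPM in the cells with most Slc38a5 against 529 CPM in those with least, a difference of -0.30 with a plate range of -0.55 to -0.10, while the median cell had 42.1 CPM against 22.6 CPM, the other direction. Abcg2 (0.21) had the same sign on 4 of 4 plates, and Slco1a4 (0.09), Abcb1a (-0.16) and Abcc4 (0.02) on 3. Of the 9 genes, 0 passed 2-fold in either direction, where 0.508% of 1970 genes were 2-fold higher and 0.558% were 2-fold lower.

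Levels of the transporters in single capilEC cells had little relation to each other. Over 787 cells, which share plates and library depth, the Spearman correlations between pairs of 7 of the genes had medians over plates of -0.03 to 0.12, and the highest was that of Abcg2 with Slco1a4. Correlations with the total reads of a cell were of the same size, at -0.09 to 0.12. At least 50 CPM of both Abcb1a and Abcg2 were found in 79.3% of aEC cells and 93.3% of vEC cells, against 81.4% of capilEC cells (exact binomial 95% interval 78.6% to 84.1% in capilEC). The same was so for 2 of 17 CP-EC, 9 of 54 PC and 8 of 137 MG cells.

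In CP-EC, where 16 of 17 cells carried markers of fenestrated endothelium, 4 barrier transporters were low. For CP-EC against capilEC, 4 of 9 genes were 4-fold lower and 0 were 4-fold higher, where 8.79% of 2149 genes were 4-fold lower and 3.12% were 4-fold higher. At 2-fold, 0 were higher and 5 were lower, where 13.9% and 19.6% of all genes were. Abcb1a differed by -3.43, Slco1a4 by -2.97, Slc22a8 by -2.89 and Abcc4 by -2.43. Abcg2 differed by -1.77, with 353 CPM in CP-EC against 1218 CPM in capilEC, and it passed 4-fold without its top cell in each type (-2.22, with the median of all genes moved by -0.44), without plate s480s (-2.11) or s482s (-2.16), and with equal weight for every cell (-2.09). Without plate s483s it differed by -0.96. Slco2b1 differed by -0.72, with 287 CPM in CP-EC against 475 CPM in capilEC. The pan endothelial sum of CP-EC was 89.4% of that of capilEC.

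Most of the remaining reads of Slco1a4, Slc22a8 and Abcc4 in CP-EC came from 2 of the 17 cells, which were singled out after their values were seen. The first of them held 2166 CPM of Slco1a4, 1025 CPM of Slc22a8 and 368 CPM of Abcb1a, beside 1723 CPM of the fenestrated markers. The second held 902 CPM of Slco1a4, 422 CPM of Slc22a8 and 1799 CPM of Abcc4, with the fenestrated markers at 0. In the other 15 cells the fenestrated markers summed to 2313 to 9979.5 CPM, Slco1a4 ran from 21.7 to 111 CPM, Slc22a8 from 8.91 to 101 CPM and Abcc4 from 0 to 21.9 CPM. Leaving out for each gene its top cell gave 101 CPM of Slco1a4, 50.4 of Slc22a8, 28.2 of Abcb1a and 9.25 of Abcc4. Abcg2 was spread more widely, with at least 50 CPM in 10 of 17 cells and 256 CPM without its top cell. Only plate s483s held at least 5 CP-EC cells, and the differences there were -4.65 for Abcb1a, -4.65 for Slco1a4, -4.53 for Slc22a8 and -1.95 for Abcc4. Without that plate the differences were -1.96 for Slc22a8, which is under 4-fold, -2.01 for Slco1a4 and -5.64 for Abcc4. Without plate s482s, which held the first of the 2 cells, Slco1a4 differed by -4.83 and Slc22a8 by -4.63.

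In PC, 5 transporters were low and Slc22a8 was not. For PC against capilEC, 5 of 9 genes were 4-fold lower and 0 were 4-fold higher, where 10.1% of 2081 genes were 4-fold lower and 5.81% were 4-fold higher. At 2-fold, 0 were higher and 5 were lower, where 11.4% and 23.0% of all genes were. Abcb1a differed by -3.04, Slco1a4 by -2.39, Abcc4 by -2.33, Abcg2 by -2.12 and Slco2b1 by -2.02. Slc22a8 differed by -0.58, with 961 CPM in PC against 1435 CPM in capilEC, and the plate range of -1.26 to 0.34 included 0. The call of Abcg2 was lost without plate s169s (-1.99), and that of Slco2b1 without plate s482s (-1.37) or s483s (-1.78) and with a pseudocount of 20 CPM (-1.89); its plate range of -4.94 to 0.01 included 0. With DESeq2 size factors both were under 4-fold (Abcg2 -1.96, Slco2b1 -1.86), while the median of all genes moved by 0.15. Over all alternatives the difference ran from -3.975 to -1.96 for Abcg2 and from -5.23 to -1.37 for Slco2b1.

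The PC cells also held endothelial reads, and Slc22a8 moved with them less than Slco1a4, Abcb1a and Abcg2 did. In the 18 PC cells with most pan endothelial reads, Slco1a4 stood at 1584 CPM, Abcb1a at 274, Abcg2 at 599.6 and Slc22a8 at 1224. In the 18 PC cells with least, Slco1a4 stood at 84.4 CPM, Abcb1a at 9.38, Abcg2 at 78.7 and Slc22a8 at 878. Without the PC cells above 50% of the endothelial level of the median capilEC cell, 46 cells remained, with 924 CPM of Slc22a8, 83.1 of Slco1a4 and 18.01 of Abcb1a. A stricter bound of 10%, added after the data were seen, left 20 cells with 924 CPM of Slc22a8, 81.8 of Slco1a4 and 9.58 of Abcb1a. Under the 50% and 10% bounds, Abcg2 stood at 109 and 72.7 CPM, Abcc4 at 37.7 and 65.8, and Slco2b1 at 17.0 and 7.77. The Slc22a8 level of PC was 67.0% of that of capilEC, above each of the 15 endothelial markers, which ran from 6.03% to 56.6%. Abca1 (63.0%) and Abcc1 (760%) also lay above these markers, with 73.1% and 85.0% of their PC reads in 1 cell. For Slc22a8, the bound set by 95% of MG cells, 75.2 CPM, was passed by 33 of 54 PC cells (61.1%, exact binomial 95% interval 46.9% to 74.1%), against 80.2% of capilEC cells. Choroid plexus epithelial markers summed to 673 CPM in PC, 261 in FB, 201 in CP-EC and at most 33.5 in the other types, and 4 PC cells held at least 50 CPM of them. The 50 PC cells under that level had 1038 CPM of Slc22a8, against 327 CPM in those 4 cells. Fibroblast markers summed to 1262 CPM in PC, and Slc22a8 stood at 868.5 CPM in the 35 PC cells with at least 50 CPM of them, against 1165 CPM in the other 19.

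The smooth muscle types did not share the Slc22a8 level of PC. Slc22a8 stood at 57.6 CPM in aSMC and 131 CPM in vSMC, the bound of 75.2 CPM was passed by 3 of 41 aSMC and 3 of 29 vSMC cells, and in vSMC 1 cell held 54.0% of the reads. Relative to capilEC, the levels in aSMC were 1.90% for Abcb1a, 1.93% for Slco1a4 and 4.02% for Slc22a8, beside 8.37% for the pan endothelial sum. In vSMC they were 14.1%, 8.48% and 9.10% for the same genes, beside 19.4% for that sum. With the 10% bound, 17 vSMC cells had 16.7 CPM of Abcb1a, 65.7 of Slco1a4 and 8.00 of Abcc4 but 181 of Slc22a8, and 35 aSMC cells had 8.51, 26.7, 6.08 and 10.8 CPM of the same genes. The vSMC cell with most Slc22a8, 4439 CPM, stayed within that bound. For the endothelial mean (aEC, vEC and capilEC) against the mural mean (PC, aSMC and vSMC), 5 of 9 genes were 4-fold higher and 0 were 4-fold lower, where 9.47% of 2398 genes were 4-fold higher and 5.96% were 4-fold lower. At 2-fold, 6 were higher and 0 were lower, where 20.6% and 10.8% of all genes were. Abcb1a differed by 3.28, Slco1a4 by 3.07, Slco2b1 by 2.45, Abcg2 by 2.41 and Abcc4 by 2.12, each with the same sign on 4 of 4 plates. With the 10% bound Abcb1a differed by 5.65 and Slco1a4 by 5.37. Slc22a8 differed by 1.12, with 841 CPM in the endothelial mean against 383 CPM in the mural mean. Abcc4 was under 4-fold with DESeq2 size factors, at 1.93, which moved the median of all genes by -0.21, and at the limit with a pseudocount of 20 CPM, where 4 genes were called.

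**Figure D4:**
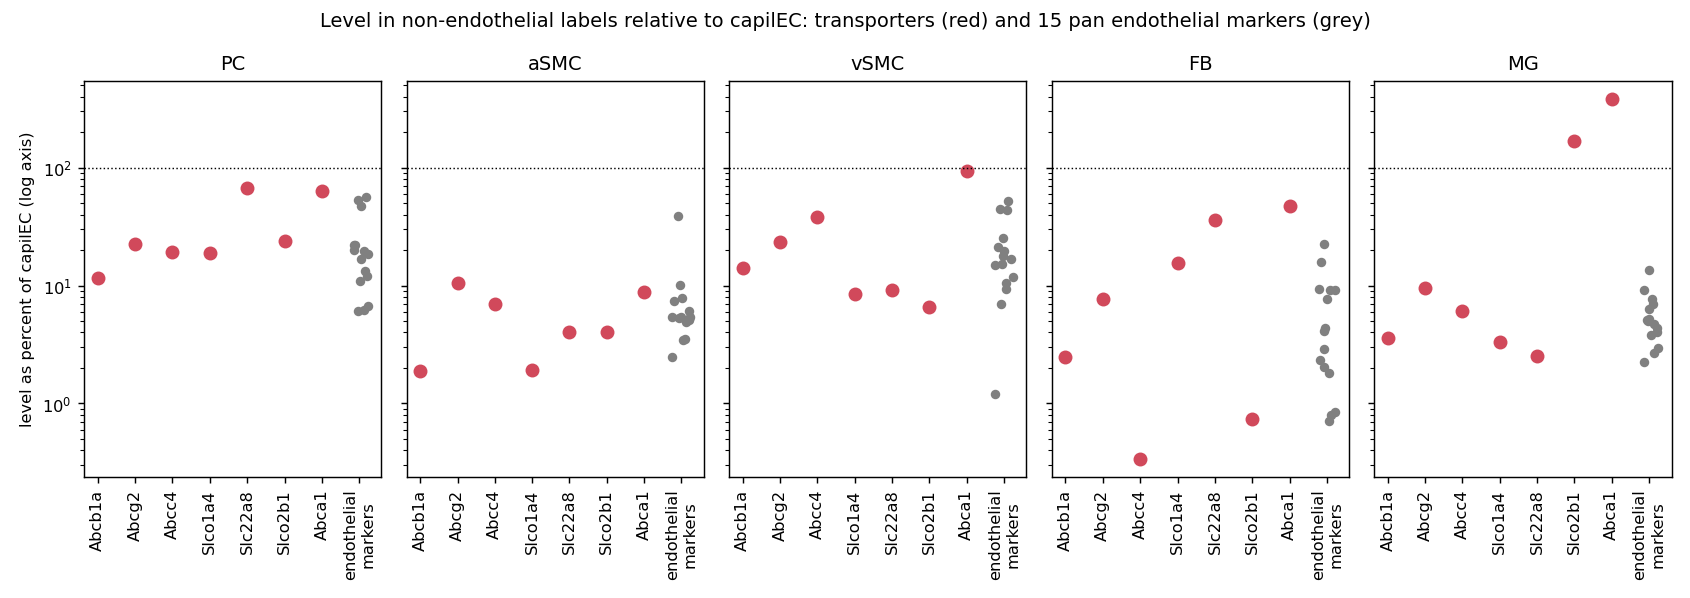
Level of 7 transporter genes (red) and of 15 pan endothelial markers (grey) in PC, aSMC, vSMC, FB and MG as a percent of their level in capilEC (log axis, dotted line at 100%). In PC, Slc22a8 (67.0%) lies above the markers (6.03% to 56.6%) while Slco1a4 (19.0%) and Abcb1a (11.7%) lie among them. Abca1 (63.0%) also lies above the markers in PC, with 73.1% of its reads there in 1 cell. In MG, Slco2b1 (168%) and Abca1 (382%) lie above 100%.

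In FB, Slc22a6 was high and 5 endothelial transporters were low. For FB against capilEC, 1 of 9 genes was 4-fold higher and 5 were 4-fold lower, where 11.0% of 2570 genes were 4-fold higher and 15.7% were 4-fold lower. At 2-fold, 1 was higher and 6 were lower, where 22.7% and 26.2% of all genes were. Slc22a6 had 983 CPM in FB against 0.185 CPM in capilEC, a difference of 7.57. Abcc4 differed by -6.39, Slco2b1 by -5.82, Abcb1a by -5.03, Abcg2 by -3.64 and Slco1a4 by -2.66. Slc22a8 had 515 CPM in FB against 1435 CPM in capilEC, a difference of -1.47. Pan mural markers summed to 6019.9 CPM in FB and astrocyte markers to 4473 CPM, and their part in the Slc22a8 level was not tested. No plate held 5 FB cells, so no plate range could be given.

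The 9 FB cells were not alike in their anion transporters. Slc22a6 had 4504, 1727, 918.5, 658 and 558 CPM in 5 cells and 0 in the other 4. In the same order of cells, Slc22a8 had 1539.5, 1613, 30.5, 306 and 951 CPM in the 5 cells, and 429, 17.2, 15.2 and 11.3 CPM in the 4. Col1a1, a collagen gene, had 709 to 7191 CPM in the 5 cells and 0 to 505 CPM in the 4, while Dcn, the decorin gene, had 1652 to 5579.8 CPM and 2908 to 9053 CPM. Pdgfra, a receptor gene that also marks fibroblasts, ran otherwise, with 1445, 0, 325, 0 and 0 CPM in the 5 cells and 89.1, 226, 2360.5 and 2403 CPM in the 4. Slco1a4 did not follow Slc22a6: its highest values were 2377 CPM in a cell with Slc22a6 and 1957 CPM in a cell without it. The cell with 2377 CPM had 8680 CPM of the pan endothelial list, and the cell with 1957 CPM had 388 CPM of it. In the 3 FB cells with most pan endothelial reads, Slc22a8 stood at 1005 CPM and Slc22a6 at 2124. In the 3 FB cells with least, Slc22a8 stood at 21.2 CPM and Slc22a6 at 452. The call of Slc22a6 was lost without plate s483s and with the 10% bound on endothelial reads, since under 50% of the cells left held a read, and 600.4 CPM remained in the 7 cells of that bound, beside 345 CPM of Slc22a8, 284 of Slco1a4 and 6.71 of Abcb1a. Slc22a8 was 4-fold lower in FB without its top cell in each type (-2.08, with the median of all genes moved by -0.65), without plate s169s (-2.27) and under the 10% bound (-2.04).

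**Figure D5:**
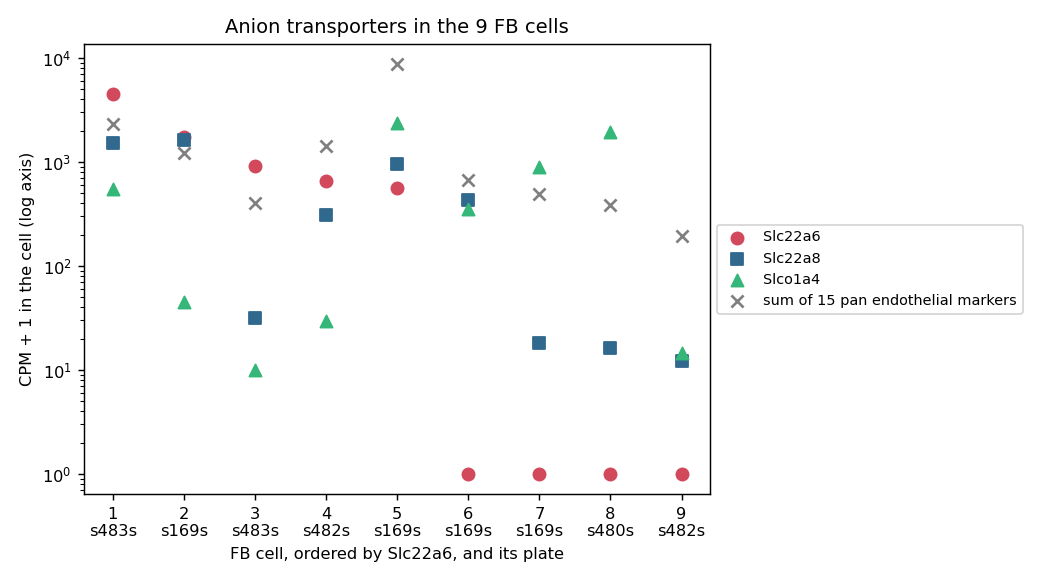
CPM + 1 (log axis) of Slc22a6, Slc22a8, Slco1a4 and the sum of 15 pan endothelial markers in the 9 FB cells, ordered by Slc22a6, with the plate of each cell. The first 5 cells hold 558 to 4504 CPM of Slc22a6 and the other 4 hold 0, while Slco1a4 is high in cells of both kinds.

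In MG, Slco2b1 and Abca1 stood apart from the other transporters. For MG against capilEC, 0 of 9 genes were 4-fold higher and 5 were 4-fold lower, where 12.5% of 2267 genes were 4-fold higher and 19.2% were 4-fold lower. At 2-fold, 1 was higher and 5 were lower, where 19.5% and 33.3% of all genes were. Slc22a8 differed by -5.13, Slco1a4 by -4.84, Abcb1a by -4.60, Abcc4 by -3.86 and Abcg2 by -3.34, each with the same sign on 4 of 4 plates. Abca1 had 314 CPM in MG against 82.1 CPM in capilEC, a difference of 1.87 with a plate range of 0.33 to 2.32. It was 1.25 without plate s480s, and it passed 4-fold without plate s482s (2.06), with TMM factors (2.12) and with DESeq2 size factors (2.25), which moved the median of all genes by 0.24 and 0.38. Slco2b1 differed by 0.74, with a plate range of -0.22 to 1.04. Slco1a4 and Abcb1a had higher levels in the MG cells with more endothelial reads, whereas Slco2b1 differed little and Abca1 had a lower level there. In the 45 MG cells with most pan endothelial reads, Slco1a4 stood at 249 CPM, Abcb1a at 86.7, Slco2b1 at 829 and Abca1 at 262. In the 45 MG cells with least, Slco1a4 stood at 25.8 CPM, Abcb1a at 5.71, Slco2b1 at 807 and Abca1 at 365. With the 10% bound, 123 MG cells had 45.5 CPM of Slco1a4, 10.1 of Abcb1a, 813 of Slco2b1 and 331 of Abca1. Perivascular macrophage markers summed to 129 CPM in MG, with a median cell at 0.

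The genes most like each transporter over the 9 types were found by the Pearson correlation of log2(CPM + 5) among 8664 genes, as a description of 9 points that share their libraries. Abcb1a was most like Prom1 (0.99), Elovl7 (0.99) and Cldn5 (0.99), the claudin-5 gene of tight junctions. Abcg2 was most like Slc52a3, a riboflavin transporter gene, Cldn5 and Elovl7 (0.98 each). Slco1a4 was most like Pltp, the phospholipid transfer protein gene (0.98), Paqr5 (0.98) and Slc39a10 (0.97). Abcc4 was most like Dock9 (0.98), Kitl (0.97) and Ablim1 (0.96). The likeness was lower for Slc22a8, with Pdxk (0.92), Gsta4 (0.91) and Hdac7 (0.90), and for Abca1, with Gsdmd (0.95), Ifngr1 (0.95) and Arpc4 (0.93). Slco2b1 was most like Sp110 (0.96), Lpar6 (0.96) and Sh3bgrl3 (0.95). Osr1, Asgr1 and Sidt1 followed Slc22a6 at 1.00, which rests on FB alone.

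Other members of the same transporter families were mostly low. Of 10 other ABC efflux pump genes, 0 met the minimums in any of the 8 comparisons. Among them, Abcc6 had 31.0 CPM in aEC and 44.1 in vEC, against 58.7 in capilEC, and Abcc3 had 155 CPM in MG against 0.526 in capilEC, in too few cells to meet the rule. Of 10 other OATP genes, 1 met the minimums, and it also met the size rule: Slco1c1, a thyroxine transporter gene that is also on the endothelial marker list. It was 4-fold lower in CP-EC (168 CPM), PC (364), FB (81.0) and MG (81.1), against 1862 CPM in capilEC. In the same order, 8.79%, 10.1%, 15.7% and 19.2% of all genes were 4-fold lower. Slco1c1 was 4-fold higher in the endothelial mean against the mural mean (1396 against 211 CPM), where 9.47% of all genes were. Slco3a1 had 246 CPM in PC against 0.497 in capilEC without meeting the minimum share of cells. Of 16 other organic ion transporter genes of the Slc22 family and its relatives, 0 met the size rule in any comparison. Only 1 met the minimums in FB against capilEC, and 0 did in the other comparisons. Slc22a4, a zwitterion transporter gene, had 225 CPM in FB against 1.28 in capilEC without meeting the minimum share of cells.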

How the data were processed

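RNA was measured in 1235 single cells of mouse brain vessel fragments. The deposited table holds raw counts of reads per gene and cell as the authors made them, and a deposited label gives the type of each cell. The submitters' processing notes name Subread 1.4.6-p5, its counter featureCounts and SAMtools 1.16.1, and the builds GRCm38 and GRCm39 without a role. Neither the aligner nor the use of strand was given. All cells were kept, 0 count columns were left out, 0 cells were identical to another, and no doublet caller was run; instead, some alternatives removed cells that carried another class's markers.

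Summed counts of each type were scaled to CPM (Python 3.11.15, numpy 2.4.6, scipy 1.17.1, pandas 2.3.3). Each type is 1 sample, so there is no test; sums have exact Poisson 95% intervals and shares exact binomial 95% intervals. A zero was given the limit of 3 counts. The size rule needed a 4-fold difference of CPM + 5, 50 CPM and a read in 50% of cells of the higher group. Values by plate needed 5 cells of each type on the plate. The alternatives were TMM factors (edgeR 4.0.16) and DESeq2 1.42.0 size factors in R 4.3.3, equal weight for cells, pseudocounts of 1 and 20 CPM, no minimums, a 2-fold limit, and leaving out plates, top cells or mixed cells. The rule was tested on simulated data. In FB and CP-EC, the types with fewest cells, it also called genes that had been given no difference. It called fewer such genes in aEC against vEC and in PC against capilEC. Calls and background shares in these comparisons are less certain, most of all in FB and CP-EC. Gene order and promoters are from RefSeq (GRCm38.p6) and merged exon lengths from GENCODE M21 (GRCm38); all 9 genes matched by symbol.

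All 9 transporters are named in every label. Of 17 other lists, the marker lists are given as sums and the rest as counts, and the transporter and enzyme genes past the 4-fold rule are named, at most 4 in each direction for a list and comparison; genes named beside these were chosen after their values were seen. For each transporter with at least 50 CPM in some type, the 3 genes with the most similar pattern are named. The 9 genes and the lists were chosen with earlier results of these data known.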

Additional observations from a re-analysis of the deposited data

How the results depend on the processing

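Every log2 difference kept its direction under the alternatives for the genes called 4-fold apart, and most counts of called genes kept within 1.5 times. The exceptions were PC against capilEC, where 3 genes were called with DESeq2 size factors against 5, aEC against capilEC, where 1 gene (Slc22a8) was called with equal weight for every cell and 1 with a 2-fold limit against 0, and vEC against capilEC, where 1 was called with a 2-fold limit against 0. Over all alternatives, including the removal of each plate, the counts ran from 3 to 5 for CP-EC, 3 to 5 for PC, 5 to 7 for FB and 5 to 6 for MG, each against capilEC, from 4 to 6 for the endothelial mean against the mural mean, and were 0 for aEC against vEC. The ranges of the differences were -2.05 to -1.85 for Slc22a8 in aEC against capilEC, -0.80 to -0.28 for Slc22a8 in PC against capilEC, 5.63 to 9.70 for Slc22a6 in FB against capilEC, 0.60 to 1.13 for Slco2b1 in MG against capilEC and -5.17 to -2.14 for Slco1a4 in PC against capilEC. The cause of these changes was not tested. Another scaling moved the median difference of all genes by up to 0.42 (FB against capilEC, DESeq2 size factors), and TMM factors moved it by -0.19 in vEC against capilEC and 0.24 in MG against capilEC. Leaving out the top cell of each gene moved it by -0.12 in vEC, -0.44 in CP-EC and -0.65 in FB, each against capilEC. Of all genes, with the reported count second, dropping the minimum share of cells gave 65 against 17 higher and 23 against 11 lower in aEC, 95 against 35 and 81 against 25 in vEC, 421 against 67 and 756 against 189 in CP-EC, 593 against 121 and 410 against 210 in PC, 1063 against 282 and 1142 against 404 in FB, and 742 against 284 and 743 against 436 in MG, each against capilEC. It gave 183 against 61 and 148 against 54 for aEC against vEC, and 351 against 227 and 494 against 143 for the endothelial mean against the mural mean. A pseudocount of 20 CPM gave 11 against 17 higher in aEC and 12 against 25 lower in vEC, and without plate s483s 124 against 67 were higher and 372 against 189 lower in CP-EC. Without top cells 47 against 25 genes were lower in vEC, 397 against 189 in CP-EC and 710 against 404 in FB. Without mixed cells 323 against 210 were lower in PC, and with the 10% bound on endothelial reads, added after the data were seen, 370 against 210 were lower in PC and 351 against 227 higher in the endothelial mean. The 2-fold limit raised each count, as its shares in the results give. The small numbers of FB (9) and CP-EC (17) cells limit what these types can show. No paired analysis was possible because each label is 1 sample and no animal links the labels; differences within plates are given only as a spread.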

Other observations

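Of 27 drug metabolism and conjugation genes, 13 met the minimums in FB against capilEC. Of these 13, 4 were 4-fold higher and 0 were 4-fold lower in FB, where 11.0% and 15.7% of all genes with the minimums were. The 4 were Cyp1b1, a cytochrome P450 gene (610 CPM in FB against 1.52 in capilEC), the glutathione transferase genes Gstt1 (222 against 17.0) and Gstm2 (602 against 92.0), and the sulfotransferase gene Sult1a1 (476 against 59.9). In MG against capilEC, 6 of the 27 met the minimums. Of these 6, 0 were 4-fold higher and 4 were 4-fold lower in MG, where 12.5% and 19.2% of all genes with the minimums were. The 4 were Gsta4 (17.8 CPM in MG against 538.5 in capilEC), Cyp2d22 (17.3 against 314), Gstm1 (40.3 against 561) and Ephx1, the epoxide hydrolase gene (63.8 against 299). In the endothelial mean against the mural mean, 7 of the 27 met the minimums. Of these 7, 2 were 4-fold higher, where 9.47% of all genes with the minimums were: Gsta4 and Cyp2d22 (478 against 74.2 CPM and 193 against 36.4 CPM). In each of the other comparisons with capilEC at most 1 of the 27 was 4-fold apart: Gsta4 was lower in CP-EC (78.0 CPM) and Cyp2d22 in PC (65.3 CPM) than in capilEC. Mgst1, a membrane-bound glutathione transferase gene, was higher in vEC, with 228 CPM in vEC against 49.3 CPM in capilEC.

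Few genes around cholesterol export met the rule, and their counts are set against 12.5% of all genes 4-fold higher in MG and 11.0% in FB. Of 11 other cholesterol and lipid ABC transporter genes, 1 met the minimums in FB and 2 in MG, each against capilEC. Abca9 was 4-fold higher in FB (334 CPM) and MG (309.9 CPM), against 0.844 CPM in capilEC, and Abcg1 in MG (272 CPM) against 64.0 CPM in capilEC. Of 7 LXR target genes, 4 met the minimums in MG against capilEC. Mylip was 4-fold higher in MG (515 CPM) against 40.5 CPM in capilEC, and so was Abcg1, which is on both lists. Of 16 genes of xenobiotic and sterol sensing regulators, at most 3 met the minimums in a comparison, and 0 met the 4-fold rule in any. The pregnane X receptor gene Nr1i2 had no read in any type, where 0 reads in capilEC allow up to 0.0173 CPM. Of 6 measured scaffold genes that bind transporters at the membrane, 3 met the minimums in FB and 3 in MG, each against capilEC. Of these, 2 were 4-fold lower in FB and 1 in MG, where 15.7% and 19.2% of all genes with the minimums were. Cav1, the caveolin-1 gene, was lower in FB (198 CPM) and MG (31.5 CPM), against 941 CPM in capilEC, and Msn, the moesin gene, in FB (128 CPM) against 582 CPM in capilEC.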
